A study of Homo sapiens with 20 samples.

Results

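Cytosolic ribosomal protein genes encode the proteins of the small (RPS) and large (RPL) subunits of the cytoplasmic ribosome. They were taken by symbol alone from the table of counts per gene. The symbols were RPS or RPL followed by a number with an optional A, X, L, AL or L1, and RPLP0, RPLP1, RPLP2 and RPSA. No measured value enters this rule, but this group of genes was chosen with earlier results of these data known. The rule gave 80 of the 12558 genes, 31 of the small subunit and 49 of the large. The other 20 symbols that begin with RPS or RPL in this way are pseudogenes or readthrough genes and were left out, and RPL10 and RPL37A were not analysed here.

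The cells were HEC-1A, a human endometrial adenocarcinoma line. They carried a stably integrated lentiviral shRNA under puromycin selection, directed at EIF4G2 (EIF4G2KD, also called shDAP5) or, in the Control cells, at GFP according to the methods, a sequence that human cells lack (the sample titles call these libraries shNT). Each was sorted by FACS for surface CD133, the product of PROM1, into CD133- and CD133+ cells, with 15000 cells in each sample. This gave 5 CD133- Control, 5 CD133- EIF4G2KD, 4 CD133+ Control and 5 CD133+ EIF4G2KD libraries. The assay was bulk MARS-seq, in which reads fall at the 3' end of polyadenylated RNA. The knock-down rests on 1 shRNA sequence, and the labels do not say whether replicates were separate cultures, so p-values measure the spread between these samples, which may be technical. In bulk RNA, fewer cells of a kind and less RNA per cell cannot be told apart.

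Ribosomal proteins are made in near equal amounts and assembled in the nucleolus with ribosomal RNA, a process that needs RNA polymerase I and many assembly factors. Most of their mRNAs begin with a run of pyrimidines, the 5' terminal oligopyrimidine (TOP) motif, through which the kinase complex mTORC1 and the RNA-binding protein LARP1 control how well they are translated and how stable they are. EIF4G2 is an initiation factor related to EIF4G1 that lacks the part which binds the cap-binding protein and acts on selected mRNAs. The question here was whether ribosomal protein mRNAs differ between Control and EIF4G2KD cells and between CD133- and CD133+ cells.

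Libraries held 1679447 to 5234905 counts (median 3047418). EIF4G2 was at 193 to 360.1 CPM (counts per library, scaled by TMM to a common library size) in CD133- Control and 36.8 to 164 in CD133- EIF4G2KD, without overlap, whereas CD133+ Control (275 to 377) and CD133+ EIF4G2KD (129.5 to 349.8) overlapped. PROM1 was at 0.43 to 3.31 CPM in the CD133- libraries and 11.6 to 26.4 in the CD133+ libraries. All 9 epithelial markers examined were counted, at a summed 9215 to 14601 CPM. Among them MUC1 rose in CD133+ EIF4G2KD over CD133+ Control (log2 fold change 1.01). KRT18 and KRT19 were higher in CD133- than in CD133+ EIF4G2KD (0.47 and 0.66). None of the 6 stroma, 5 blood and 3 endothelium markers looked up is in the table of counts. CD133- EIF4G2KD replicates 2, 4 and 5 and CD133+ EIF4G2KD replicate 3 stood apart from the rest on the first principal component of all genes. They were at 20.0, 49.01, 72.7 and 25.6, against at most 1.41 in any other library. Results that rest on them are also given without them, which leaves only replicates 1 and 3 of CD133- EIF4G2KD.

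The 80 genes took up much the same part of every population's mRNA. They made up 15.3% ± 1.52 of all counts in CD133- Control (SD, n = 5), 15.7% ± 1.11 in CD133- EIF4G2KD (n = 5), 15.3% ± 1.65 in CD133+ Control (n = 4) and 15.2% ± 1.82 in CD133+ EIF4G2KD (n = 5). The 4 ranges lay over one another, from 13.4 to 16.96%, 14.4 to 17.3%, 13.8 to 17.02% and 12.6 to 17.5% in the same order. Within the share, large-subunit genes had 1.33 to 1.50 times the counts of small-subunit genes in every library.

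The share differed more between the replicate numbers of the labels than between populations. Libraries numbered 1 had 13.9 to 14.6% of their counts in these genes and libraries numbered 2 had 15.0 to 16.3%. Libraries numbered 3 had 15.5 to 16.96%, those numbered 4 had 16.5 to 17.5% and those numbered 5 had 12.6 to 15.0%. Thus no number 4 library overlapped a number 1, number 2 or number 5 library, although each number holds all 4 populations (3 for number 3). The sources used here do not say what a number stands for, and the part of handling or culture in this was not tested. Between libraries of the same number, EIF4G2KD had the higher share in 4 of 5 pairs of CD133- cells and in 2 of 4 pairs of CD133+ cells, with differences of -1.41 to 1.61 percentage points.

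**Figure D1:**
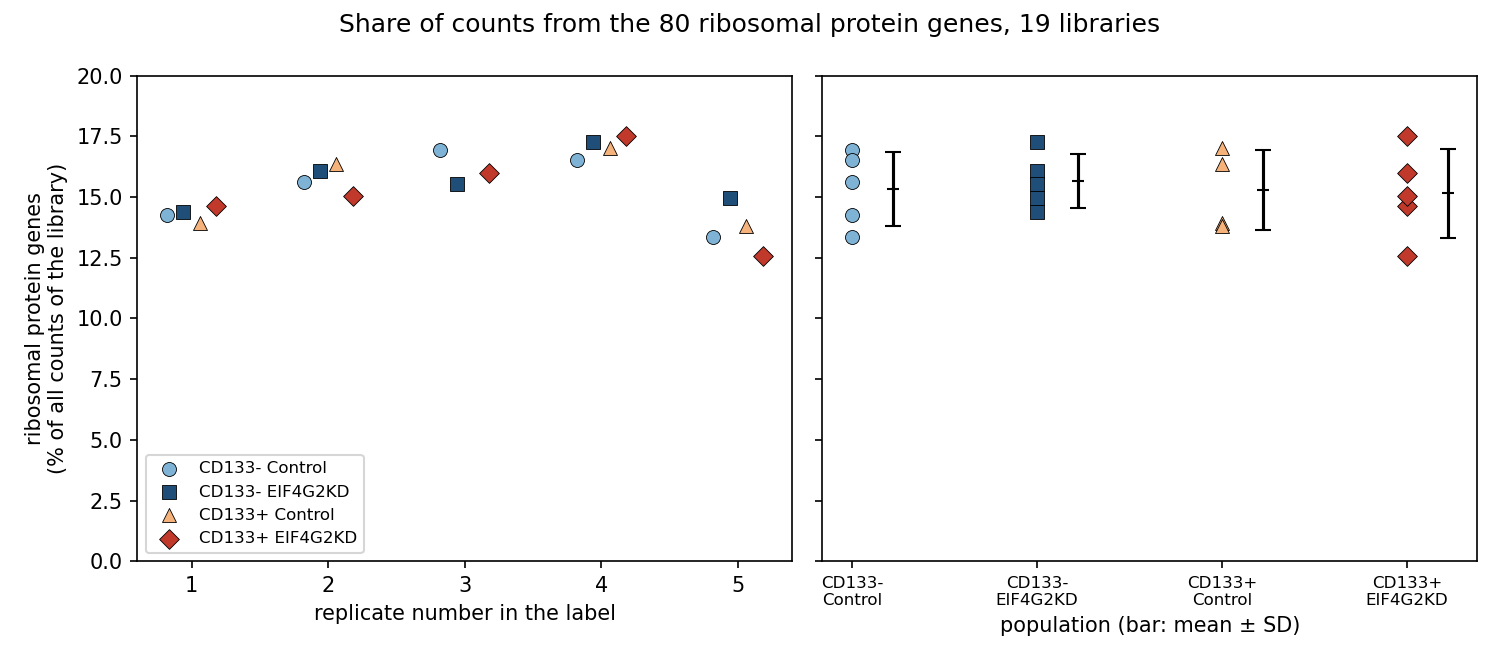
Share of all counts from the 80 ribosomal protein genes (%, vertical axis from 0) in each of the 19 libraries, by the replicate number in the label (left) and by population (right; bars are mean ± SD). Symbols and colours give the population; libraries of number 4 sit at 16.5 to 17.5% in all 4 populations, while the population means lie between 15.2 and 15.7%.

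The level of single genes spanned a far wider range than any difference between populations. Because reads come from the 3' end, a count does not grow with the length of the mRNA, and levels are given as CPM. Among the highest mean levels over the 19 libraries were those of RPL19 (7490.4 CPM), RPL18 (6914), RPL35 (6818) and RPS18 (4894), and the 10 highest genes together held 34.6% of the CPM of all 80. The mean exceeded 1000 CPM in 47 genes and lay below 50 CPM in 12, and 46 of the 100 most abundant tested genes of the library were ribosomal protein genes. Thus most members sat at a common high level and a tail of them sat far below it.

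The lower tail held genes whose products are core parts of the ribosome. RPS14, mutated or lost in disorders of red blood cell production, averaged 3.88 CPM (4 to 20 reads per library, where its pseudogene RPS14P3 had 37 to 138), RPL4 averaged 7.17 and RPL23 averaged 10.6. RPL13 (0.944 CPM), RPL14 (1.35), RPS15A (1.43) and RPL27A (1.89) did not pass the filter on low counts, with 0 to 23 reads per library, and so entered no test. The other 76 genes were tested. RPL13 in CD133+ Control replicate 4 and RPL14 in CD133+ Control replicate 2 had no read, and 78 of the 80 genes had at least 1 read in every library.

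**Figure D2:**
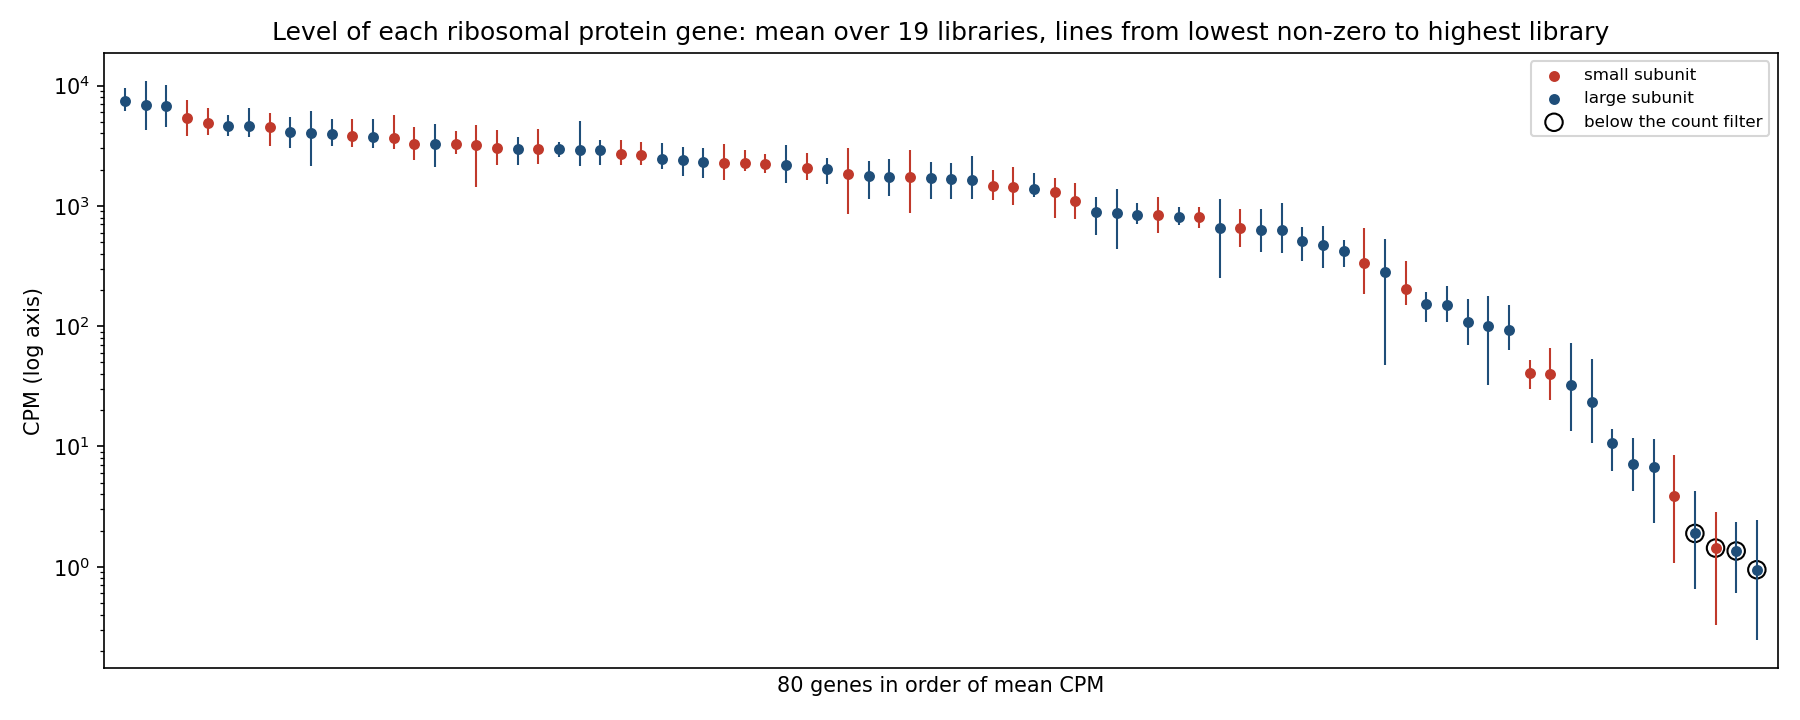
Mean CPM of each of the 80 ribosomal protein genes over the 19 libraries (log axis), in order of level; vertical lines run from the lowest non-zero to the highest library, and open circles mark the 4 genes below the count filter. The curve is shallow down to 1000 CPM, which 47 genes exceed, and then falls to 0.944 CPM for RPL13.

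Exact copies of a gene's 3' end elsewhere in the genome can change what is counted, as such reads have no single place of origin. Ribosomal protein genes have many processed pseudogenes, so the last 200 bases of each annotated mRNA (GENCODE 44, GRCh38) were searched in the genome in 16 windows of 50 bases. In 30 genes every window was found in 1 place, and in 44 genes at least 1 window was found in more than 1 place. The remaining genes are in neither group, as some of their windows were not found, such as 10 of 16 in RPS21 and 7 of 16 in RPL18. The search counted places and did not record whether a place was the gene itself. A window found in 1 place is therefore not shown to be unique to its gene. The 30 genes had a median of 643 CPM and the 44 genes 1730 CPM (1729.6). Their ranges were 0.944 to 7490.4 and 1.43 to 6818 CPM. Of the 10 lowest genes, 9 had every window in 1 place by this search, which sees exact 50-base matches only. Reads counted on annotated pseudogenes nevertheless exceeded those of the parent for 3 low genes. RPS14P3 had 1664 reads over the 19 libraries against 215 for RPS14, RPL13P5 had 89 against 55 for RPL13, and RPS15AP10 had 96 against 85 for RPS15A. Whether reads of these genes were counted on their copies was not tested, so their levels are uncertain. RPS27, RPS3A and RPL39 were mostly copied (15, 15 and 14 of 16 windows), RPL7A had 9 of 16 windows that also occur elsewhere, and these values are less certain for that reason.

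Paralogues that can stand in for a family member were measured beside their parent genes. RPL22 exceeded RPL22L1 by 6.61 to 36.3 times across the 19 libraries, RPL26 exceeded RPL26L1 by 8.10 to 33.6 times, and RPL7 exceeded RPL7L1, which acts in assembly of the large subunit, by 2.94 to 8.26 times. RPL36A and RPL36AL were at similar CPM (ratio 0.840 to 1.76), and RPL39 ranged from 0.152 to 1.64 times RPL39L. Hence the parent was the more abundant transcript in every library for 3 of the 5 pairs. None of the 10 genes passed the test in any comparison.

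The start of the gene was also examined, since TOP mRNAs are defined there. RefSeq starts (GRCh38.p14) were at hand for 61 of the 76 tested genes, and 42 of these (68.9%) began with C in a run of at least 5 C or T, against 7.28% of 8114 other tested genes. The 30 bases around the annotated start are shown for the 6 genes called in any comparison below. Capitals mark the run of C and T that begins at the annotated first base, which is base 16 of the 30, up to the end of the window.
RPS6, chr9:19380222-19380251, minus strand: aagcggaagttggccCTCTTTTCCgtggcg
RPL35, chr9:124861943-124861972, minus strand: agccccgcctacttcCTCTTTCCCTCggag
RPL7A, chr9:133348203-133348232, plus strand: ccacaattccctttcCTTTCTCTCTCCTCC
RPL18, chr19:48619164-48619193, minus strand: accccagcccgttctCTCTTTCCggacctg
RPLP1, chr15:69452803-69452832, plus strand: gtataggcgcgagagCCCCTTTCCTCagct
RPL32, chr3:12841568-12841597, minus strand: tccctgctaggacccaggggttacgaccca
RPL32 has 3 starts in that table, none of which opens with C or T, which says only that these letters are not at those annotated starts. Where its mRNA begins in these cells was not tested, so RPL32 is not shown to lack the motif.

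In CD133- EIF4G2KD over CD133- Control, no ribosomal protein gene was called. None of the 76 tested genes had an adjusted p below 0.05 by edgeR's quasi-likelihood test (0.00967% of the 10338 genes tested were called, which is 1 gene), and 5 (6.58%) had an unadjusted p below 0.05, against 10.6% of all genes. DESeq2 and limma-voom also called none. The median log2 fold change was 0.07, against 0.02 over all genes, and it was -0.04 when libraries were scaled to the ribosomal protein genes themselves. In 62 of 76 genes (81.6%) the log2 fold change lay within 0.25 of 0, against 59.3% of all genes.

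The most extreme log2 fold changes in that comparison were smaller or turned without the libraries that stood apart, where replicates 1 and 3 of CD133- EIF4G2KD remain. RPL39, a small protein lining the exit tunnel of the ribosome, stood at 88.0, 126, 178, 107 and 74.4 CPM in CD133- Control replicates 1 to 5 and at 83.2, 84.7, 87.3, 45.6 and 32.5 CPM in CD133- EIF4G2KD. The 2 lowest values were those of EIF4G2KD replicates 4 and 5, and the groups overlapped. Its log2 fold change was -0.77 ± 0.27 (SE; edgeR adjusted p = 0.37) and -0.42 without the 4 libraries.

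RPS3A, a small-subunit protein, had the largest positive log2 fold change. It stood at 250.03, 275, 479, 263 and 239.7 CPM in CD133- Control and at 230.3, 654, 277, 578 and 394 CPM in CD133- EIF4G2KD, where replicates 2, 4 and 5 were the high ones. The log2 fold change of 0.50 ± 0.28 (edgeR adjusted p = 0.522) became -0.24 without the 4 libraries.

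In CD133+ cells, 4 of the 76 genes (5.26%) differed between EIF4G2KD and Control at an edgeR adjusted p below 0.05. Of all 10338 genes, 7.86% did. RPL32 and RPLP1 were higher in EIF4G2KD and RPS6 and RPL7A were lower, and whether the knock-down itself caused this was not tested. The share was no higher than that of genes in general, the median log2 fold change was 0.08 against 0.01 over all genes, and 10 members (13.2%) had an unadjusted p below 0.05, against 19.7% of all genes. The CD133+ Control and CD133+ EIF4G2KD libraries also enter comparisons given further on, which are therefore not separate evidence.

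RPS6, the small-subunit protein that S6 kinases phosphorylate downstream of mTORC1, lies on the short arm of chromosome 9 (19375715 to 19380236, GRCh38). It stood at 3241, 3842, 4470.0 and 3143 CPM in CD133+ Control replicates 1, 2, 4 and 5, and at 2008, 2205, 2361, 2790.3 and 1446 CPM in CD133+ EIF4G2KD replicates 1 to 5. Every knock-down library was below every Control library of CD133+ cells. The log2 fold change was -0.77 ± 0.17 (edgeR adjusted p = 0.00743), and the call held in all 28 alternative analyses, with log2 fold changes of -0.87 to -0.65 and adjusted p up to 0.0313. In CD133- cells RPS6 was at 2804, 3361, 3636, 3535 and 2725 CPM in Control and at 3116, 4419.6, 3357, 4692 and 4196 CPM in EIF4G2KD, where the log2 fold change was 0.30 ± 0.16 and missed the threshold (edgeR adjusted p = 0.51). Thus the lowest values of RPS6 were found in CD133+ EIF4G2KD cells, of which replicate 4 alone overlapped CD133- Control.

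RPL32, a large-subunit protein whose gene lies on 3p (12834485 to 12841582), was measured at a low level. It stood at 15.3, 14.7, 20.0 and 15.6 CPM in CD133+ Control and at 22.4, 33.9, 35.9, 52.996 and 33.9 CPM in CD133+ EIF4G2KD, without overlap. The rise of 1.12 ± 0.26 on the log2 scale (edgeR adjusted p = 0.00876) was the largest of the 76, and it was called in all 28 alternatives, with log2 fold changes of 0.94 to 1.25. CD133- Control had 10.8, 25.6, 24.9, 19.2 and 17.2 CPM and CD133- EIF4G2KD had 15.3, 24.4, 17.9, 28.1 and 17.98 CPM, which overlapped widely. The gene holds the small nucleolar RNA gene SNORA7A on the same strand, which is counted separately in the table.

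RPL7A, a large-subunit protein encoded on 9q (133348218 to 133351426), stood at 2988, 3439, 3634 and 3343 CPM in CD133+ Control and at 2279, 2176, 2633, 3033 and 2358 CPM in CD133+ EIF4G2KD. The groups met only at knock-down replicate 4 and Control replicate 1. The log2 fold change was -0.43 ± 0.12 (edgeR adjusted p = 0.031). RPLP1, an acidic protein of the stalk that recruits elongation factors, is encoded on 15q (69452814 to 69456205) and stood at 3819, 4621, 4488 and 3737 CPM in CD133+ Control and at 4967, 5280.1, 5922, 6544 and 5017 CPM in CD133+ EIF4G2KD, without overlap. Its log2 fold change was 0.41 ± 0.12 (edgeR adjusted p = 0.045). Both calls were close to the threshold. RPL7A kept its call in 21 of 28 alternatives and RPLP1 in 15 of 28, and leaving out CD133+ Control replicate 2, 4 or 5 left RPS6 and RPL32 as the 2 genes called.

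**Figure D3:**
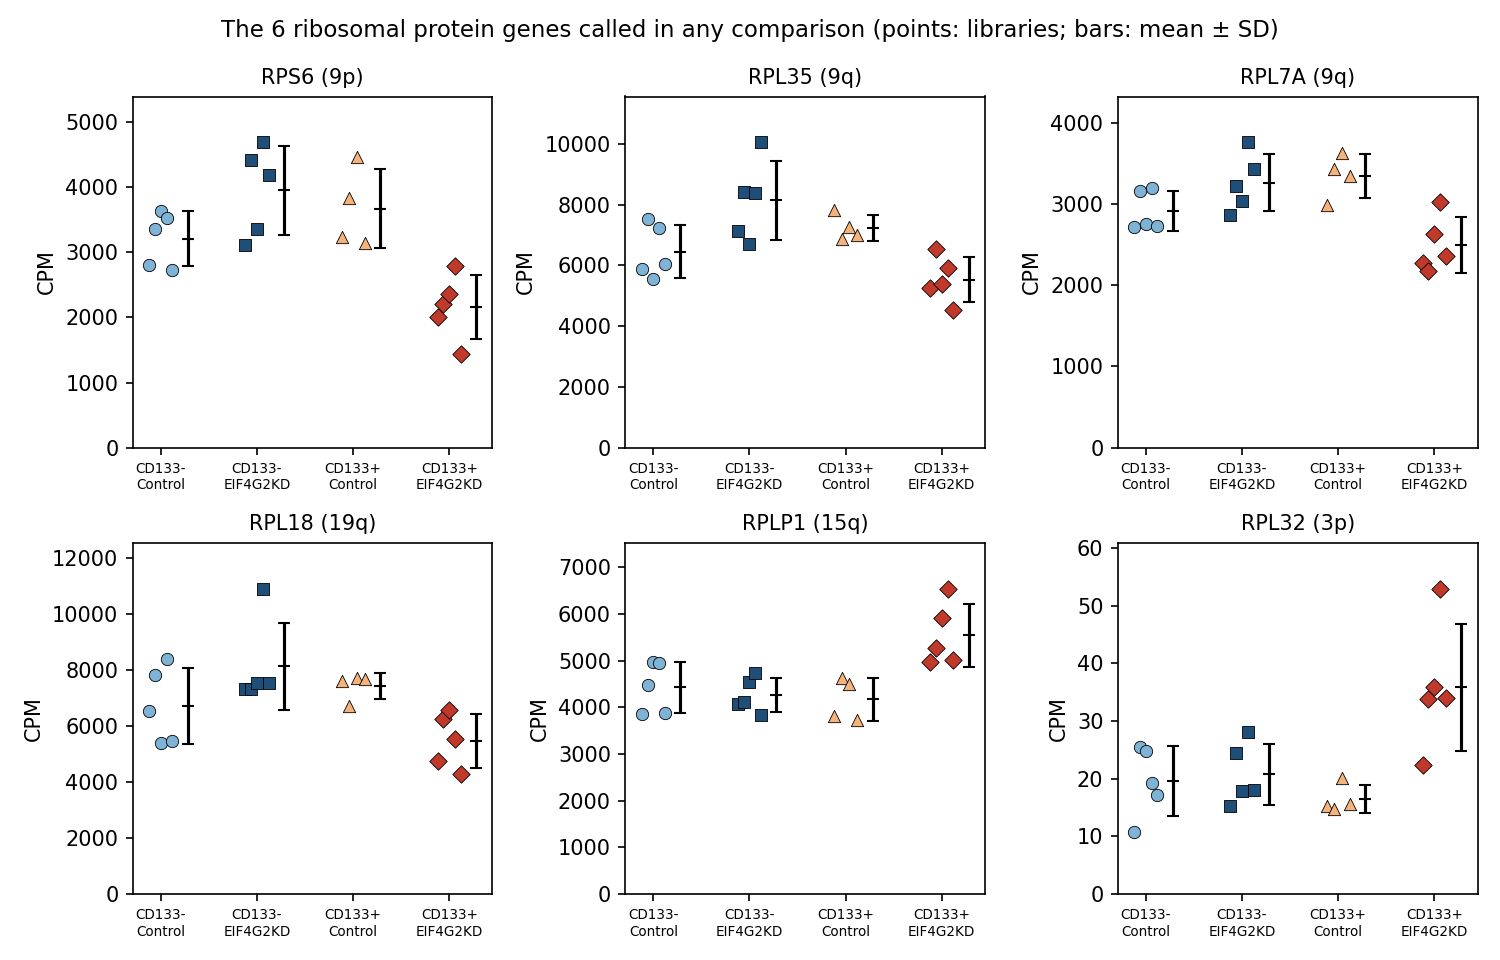
CPM (vertical axes from 0) of the 6 ribosomal protein genes called in any comparison, in each library by population, with mean ± SD beside the points; the chromosome arm is given with each name. RPS6, RPL35, RPL7A and RPL18 have their lowest mean in CD133+ EIF4G2KD and RPLP1 and RPL32 their highest.

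The partners of RPLP1 in the stalk did not pass the test. RPLP0 had a log2 fold change of 0.33 and RPLP2 of 0.18 in CD133+ cells. Among genes just short of the threshold were RPS28 (0.49 ± 0.17, edgeR adjusted p = 0.0787), RPL35 (-0.39 ± 0.14, adjusted p = 0.0892) and RPL18 (-0.44 ± 0.16, adjusted p = 0.11), which were chosen after their values were seen.

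The differences in CD133+ cells were then set against genome location. In this comparison the median log2 fold change was -0.50 for the other tested genes on chromosome 9 (428 genes, 27.3% called), -0.44 for those of 19q (396 genes, 19.7% called) and 0.50 for those of 1q (444 genes, 30.9% called). These regions were known from earlier results of the same libraries, so the values are a description. The members at these places had the sign of their neighbours' median except RPS9 on 19q, and 2 of them, both on chromosome 9, were called.

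All 4 members on chromosome 9 were negative, with a median of -0.41. RPS6 was close to the other genes of 9p (median -0.66). RPL7A and RPL35 were at -0.43 and -0.39 where the other genes of 9q had a median of -0.46, and RPL12 was at -0.08 ± 0.22, within its error of 0. Of the 8 members on 19q, 7 were negative, with a median of -0.20, and 0 were called. RPL18 and RPL13A (-0.44 and -0.43) matched the arm's median, while RPS9 (0.03) lay above it. RPS27, the sole member on 1q, was at 0.24 ± 0.23, and no member lies on chromosome 21. The 63 tested members elsewhere had a median of 0.12, against 0.02 for 8617 other genes.

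Across the 76 members, the log2 fold change went with the median of the other genes on the same arm (Pearson's r = 0.57, Spearman's rho = 0.41, and r = 0.55 without RPS6 and RPL32). In the CD133- comparison r was 0.02. These are descriptions across genes, which share the same libraries and are not independent replicates. RPL32 was the member farthest from its arm, 1.08 above the median of 3p, followed by RPL34, which was at -0.48 ± 0.26 and 0.52 below that of 4q and did not pass the test.

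**Figure D4:**
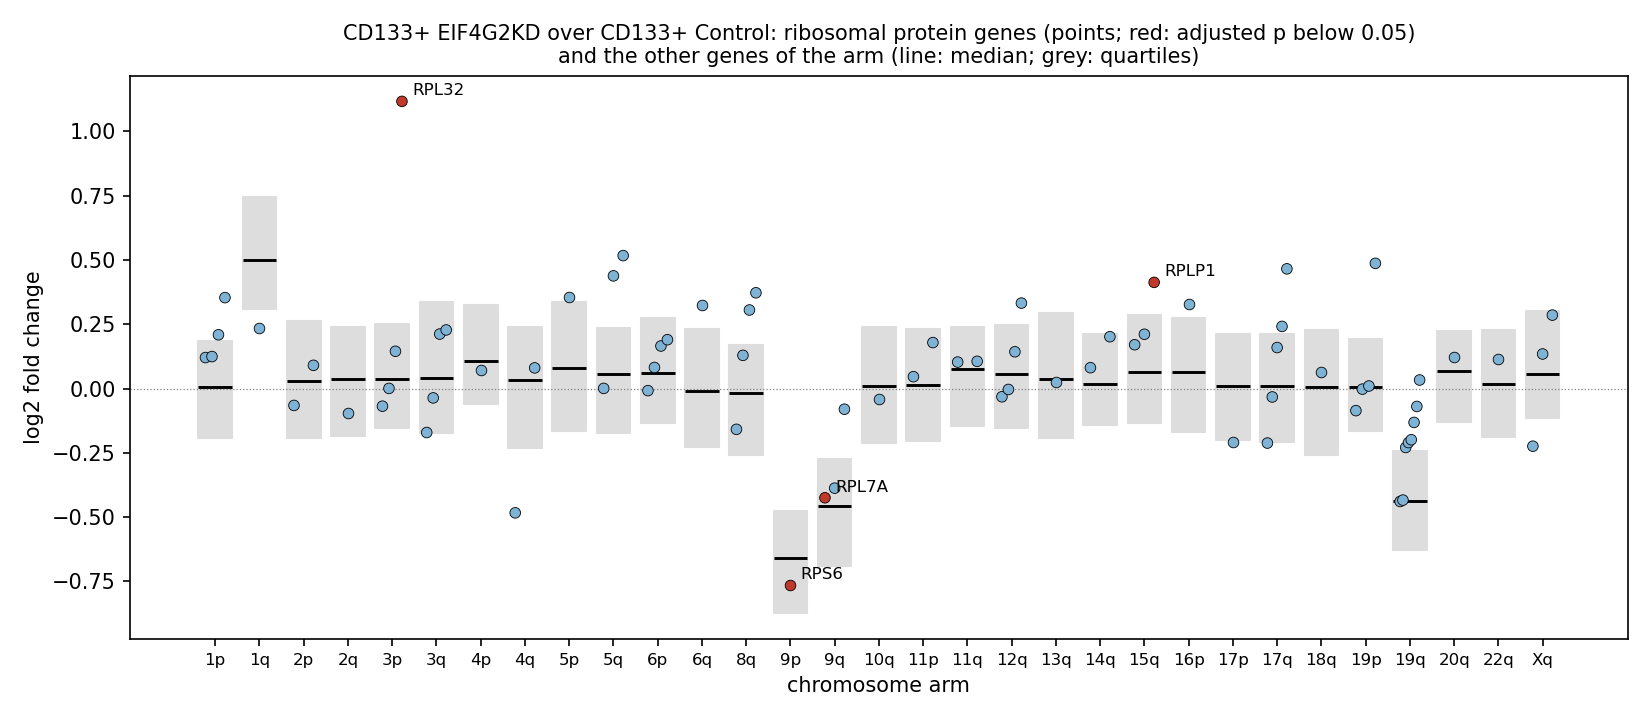
Log2 fold change of the 76 tested ribosomal protein genes in CD133+ EIF4G2KD over CD133+ Control (points, red where the adjusted p was below 0.05), by chromosome arm, with the median (line) and quartiles (grey) of the other tested genes of the arm. The members on 9p, 9q and 19q lie below 0 except RPS9 at 0.03, and RPL32 at 1.12 and RPLP1 at 0.41 lie above the quartiles of their arms.

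Members grouped by place were also summed in each library. The 4 genes of chromosome 9 made up 8.30 to 9.21% of the ribosomal protein counts in the 5 CD133+ EIF4G2KD libraries. They made up 9.67 to 10.998% in CD133- Control, 10.9 to 13.1% in CD133- EIF4G2KD and 10.9 to 11.9% in CD133+ Control, so the CD133+ EIF4G2KD libraries lay below all 14 others. The 8 genes of 19q made up 15.3 to 17.1% in CD133+ EIF4G2KD, again below every other library, since the other populations ranged from 17.2 to 22.3%. RPS27 of 1q made up 1.12 to 1.75% in CD133+ EIF4G2KD and overlapped the other libraries (0.525 to 1.47%). The 67 members elsewhere than on chromosome 9, 19q and 1q made up 72.7 to 74.7% in CD133+ EIF4G2KD and 65.2 to 71.7% in the other libraries. Hence, within the ribosomal protein counts, the summed shares of chromosome 9 and 19q lay apart in that population, while the total share overlapped. The places are parts of 1 total, so the share of the others is not a separate result. As percent of all counts the ranges overlapped. Chromosome 9 had 1.06 to 1.50% in CD133+ EIF4G2KD against 1.44 to 2.04% in the other libraries. For 19q these were 2.03 to 2.76% against 2.53 to 3.85%, and for the 67 members elsewhere 9.32 to 12.98% against 9.24 to 12.15%. The median log2 deviation of the members, in which each gene weighs the same, overlapped for both regions, at -0.65 to -0.17 on chromosome 9 and -0.50 to 0.05 on 19q in CD133+ EIF4G2KD against -0.32 to 0.33 and -0.24 to 0.39 in the other libraries. No test was made, since the regions were known to differ.

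Control cells sorted by CD133 did not differ in any ribosomal protein gene by the test. In CD133- Control over CD133+ Control none of the 76 had an edgeR adjusted p below 0.05 (0.261% of all genes were called), 1 (1.32%) had an unadjusted p below 0.05 against 4.34% of all genes, and DESeq2 and limma-voom called none. In 72 of 76 genes (94.7%) the log2 fold change lay within 0.25 of 0, against 75.4% of all genes, and the median was 0.00 on both sides. The gene with the unadjusted p below 0.05 was RPS23, a small-subunit protein of the decoding centre. It stood at 39.9, 35.2, 58.7, 55.7 and 33.9 CPM in CD133- Control and at 24.5, 28.7, 39.1 and 24.1 CPM in CD133+ Control, with overlap, and had a log2 fold change of 0.62 ± 0.27 (edgeR adjusted p = 0.984). The lowest value was that of RPL7A, at -0.20 ± 0.12.

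Knock-down cells sorted by CD133 differed in 6 genes (7.89%), where 7.71% of all genes were called. RPS6, RPL35, RPL18 and RPL7A were higher in CD133- EIF4G2KD than in CD133+ EIF4G2KD, and RPL32 and RPLP1 were lower. This comparison shares the CD133+ EIF4G2KD libraries with the one above, and its signs are opposite because that population stands second. The median was -0.06, against -0.01 over all genes.

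RPL35, a large-subunit protein near the exit tunnel encoded on 9q (124857880 to 124861981), was at 7137, 8405, 6712, 8389 and 10053 CPM in CD133- EIF4G2KD and at 5256, 6553, 5401, 5906 and 4544 CPM in CD133+ EIF4G2KD, without overlap. The log2 difference was 0.56 ± 0.13 (edgeR adjusted p = 0.00902). RPL18, a large-subunit protein encoded on 19q (48615328 to 48619184), was at 7324, 7319, 7539, 10917 and 7551 CPM in CD133- EIF4G2KD and at 4736, 6253, 6561, 5549 and 4284 CPM in CD133+ EIF4G2KD, again without overlap. The log2 difference was 0.57 ± 0.15 (edgeR adjusted p = 0.0247). Both were also lower in CD133+ EIF4G2KD than in every CD133+ Control library (RPL35 at 6870.1 to 7816 CPM and RPL18 at 6726 to 7714 CPM).

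The other 4 genes were those already called in CD133+ cells. RPS6 differed by 0.87 ± 0.16 (edgeR adjusted p = 0.00185) and RPL7A by 0.39 ± 0.11 (adjusted p = 0.0388). RPL32 differed by -0.80 ± 0.24 (adjusted p = 0.0443) and RPLP1 by -0.38 ± 0.12 (adjusted p = 0.0494). None of the 6 was called without the 4 libraries that stood apart, when 2.68% of all genes were called. Only replicates 1 and 3 of CD133- EIF4G2KD remain there, and the part of the smaller group in the lost calls was not tested. RPS6 then differed by 0.62, RPL35 by 0.32, RPL18 by 0.51, RPL7A by 0.26, RPL32 by -1.10 and RPLP1 by -0.34, all with the same sign. Leaving out CD133- EIF4G2KD replicate 2 or 5 or CD133+ EIF4G2KD replicate 2 left 3 calls, RPS6, RPL35 and RPL18.

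The log2 fold change of EIF4G2KD over Control differed between CD133+ and CD133- cells for 2 genes (2.63%), against 1.94% of all genes. This is called the difference of the knock-down effects, and whether the knock-down itself caused it was not tested. RPS6 fell in CD133+ cells and not in CD133- cells, and the difference of the log2 fold changes was -1.07 ± 0.24 (edgeR adjusted p = 0.0192). For RPL35 it was -0.72 ± 0.19 (adjusted p = 0.0492), from -0.39 in CD133+ and 0.34 in CD133- cells. Neither was called without the 4 libraries (adjusted p of 0.201 and 0.364, differences of -0.82 and -0.49). RPS6 was also not called without CD133+ Control replicate 4 (adjusted p = 0.0532), and RPL35 was called in 8 of 27 alternatives. RPL32 had a difference of 1.04 ± 0.35 and was not called (edgeR adjusted p = 0.155).

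**Figure D5:**
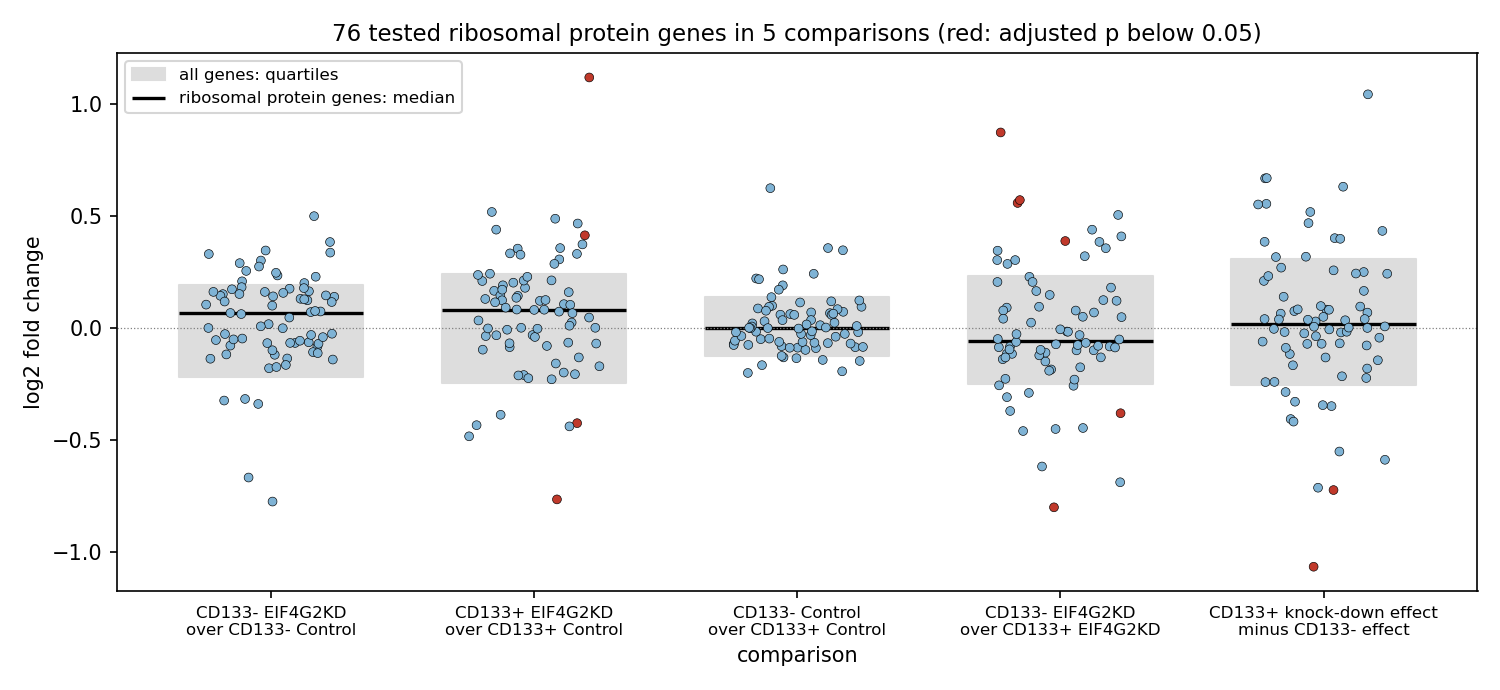
Log2 fold change of the 76 tested ribosomal protein genes (points, red where the adjusted p was below 0.05) in the 4 comparisons of populations and in the difference of the knock-down effects, with their median (line) and the quartiles of all 10338 genes tested (grey). The points are narrowest in CD133- Control over CD133+ Control, where 94.7% lie within 0.25 of 0, and the medians lie between -0.06 and 0.08.

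Genes that act with ribosomal proteins were taken from 5 lists, which hold other TOP mRNAs, factors of large and small subunit assembly, RNA polymerase I, and mTORC1 with LARP1. Of 160 tested genes, 9 were called in CD133+ EIF4G2KD over CD133+ Control (5.62%, against 7.86% of all genes). Of these, 8 lie on 1q, chromosome 9, 19q or chromosome 21, where 15 of the 160 lie. Outside the members, 30.9% of all tested genes on 1q, 27.3% on chromosome 9 and 19.7% on 19q were called. At other locations, chromosome 21 among them, it was 5.19%. The regions were known from earlier results of the same libraries, so these counts are a description. No gene was called in either of the comparisons within CD133- cells or within Control cells. The medians of the 5 lists in the CD133+ comparison lay between -0.04 and 0.12.

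Among 23 other TOP mRNAs, which include the elongation factors EEF1A1 and EEF2 and the poly(A)-binding protein PABPC1, TCTN1 on 12q was called in CD133+ cells and no other gene of the list was (0.85 ± 0.15, edgeR adjusted p = 0.00101). TCTN1 encodes tectonic 1, a protein of the base of the cilium and not a translation factor, and its place among TOP mRNAs is doubtful. Among 39 factors of large-subunit assembly, REXO4 on 9q (-0.80 ± 0.15, adjusted p = 0.0015) and RRP1B on 21q (-0.77 ± 0.20, adjusted p = 0.02) fell and NVL on 1q rose (0.63 ± 0.15, adjusted p = 0.0104).

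Among 53 factors of small-subunit assembly and of the small nucleolar RNPs, RCL1 on 9p fell (-0.83 ± 0.15, edgeR adjusted p = 0.00139). Of the 20 genes of RNA polymerase I and its factors, TTF1, a terminator of ribosomal RNA transcription, and POLR1E, a subunit, fell by 0.73 ± 0.16 and 0.58 ± 0.16 on the log2 scale (adjusted p = 0.00776 and 0.0284), and both lie on chromosome 9. Among 25 genes of mTORC1 and its control, RRAGA on 9p, a GTPase that brings mTORC1 to the lysosome, fell (-0.90 ± 0.16, adjusted p = 0.00115), and LAMTOR2 on 1q, which anchors it there, rose (0.71 ± 0.15, adjusted p = 0.00432). In CD133- EIF4G2KD over CD133+ EIF4G2KD, 7 of the 160 genes were called (4.38%, against 7.71% of all genes). They were REXO4, SURF6, RRP1B, NOC4L, RCL1, POLR1E and RRAGA, all higher in CD133- cells, by 0.55 to 1.01 on the log2 scale. Of these, 6 lie on 1q, chromosome 9, 19q or chromosome 21.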

How the data were processed

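RNA was measured by bulk MARS-seq in 19 libraries, and CD133+ Control replicate 3, which failed the authors' quality control, was not analysed. The authors made the deposited counts per gene from reads trimmed with cutadapt, mapped to hg38 with STAR 2.4.2a and counted with HTSeq over 3' ends. Deposited normalized signal, counts divided by DESeq2 size factors, served only for the study's threshold on mean level. Deposited columns of the authors' own comparisons (fold changes and p-values) were not used.

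Genes were kept by edgeR's filterByExpr (minimum count 10), scaled by TMM and fitted over all 4 populations with quasi-likelihood tests. P-values were adjusted by Benjamini-Hochberg over 10338 genes, and genes below 0.05 were called. Changes were simulated in counts for CD133+ cells, in genes drawn at random from all those tested. Of these, 7.46% of 1.5-fold, 47.8% of 2-fold and 95.5% of 4-fold changes were recovered. Libraries held 1679447 to 5234905 counts. Members, lists and regions were chosen with earlier results of these data known. Genes named were those called in any comparison, the 5 highest and 5 lowest in level, the extremes of fold change in each comparison, paralogues with their parents, up to 4 called genes of each other list, EIF4G2 and PROM1, and genes singled out as stated. Locations are from GENCODE 44 and starts from RefSeq, both GRCh38. The tools were edgeR 4.0.16, with limma 3.58.1, DESeq2 1.42.0, other scalings, filters and left-out libraries as alternatives. Some genes of the lists are not reported here.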

Additional observations from a re-analysis of the deposited data

Results flagged for a closer look

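In 108 sets of values, each 1 gene in 1 population, 7 had a single library far from the others, where chance gives about 1 in 20. RPL18 was at 10917 CPM in CD133- EIF4G2KD replicate 4, against 7319 to 7551 in the other libraries of that population. It was at 6726 CPM in CD133+ Control replicate 2, against 7593 to 7714. RPS3A was at 479 CPM in CD133- Control replicate 3, against 239.7 to 275. RPL32 was at 20.0 CPM in CD133+ Control replicate 4, against 14.7 to 15.6, and its rise was called without that library too. RPL22 was at 149.5 CPM in CD133+ EIF4G2KD replicate 4, against 75.6 to 95.7. RPL36AL was at 666 CPM in CD133+ EIF4G2KD replicate 1, against 496 to 539. RPL13 was at 1.63 CPM in CD133+ EIF4G2KD replicate 2, against 0.356 to 0.557, on 4 reads.

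The log2 fold change of EIF4G2KD over Control differed between CD133+ and CD133- cells for RPS6 and RPL35 by the edgeR interaction test. The difference was -1.07 for RPS6 and -0.72 for RPL35.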

How the results depend on the processing

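In CD133+ EIF4G2KD over CD133+ Control, the 4 calls became 2 when only the populations compared were fitted, 2 at the study's thresholds (which add a log2 fold change beyond 0.58) and 2 to 4 when 1 library was left out. In CD133- over CD133+ EIF4G2KD, the 6 calls became 3 with only those populations, 2 at the study's thresholds, 0 without the 4 libraries that stood apart and 3 to 6 when 1 library was left out. For the difference of the knock-down effects, the 2 calls became 1 with RLE scaling, 1 with TMM without the members, 1 when scaled to the members, 1 with no filter on low counts, 0 without the 4 libraries and 0 to 2 when 1 library was left out. In the same order, DESeq2 called 4, 8 and 3 members (7.97%, 7.78% and 2.99% of all genes) and limma-voom 4, 4 and 3 (10.9%, 6.26% and 2.47%). With no filter the CD133+ comparison had 3 calls (6.34% of all genes) and CD133- over CD133+ EIF4G2KD had 5 (6.44%). Without the 4 libraries the CD133+ comparison had 3 (7.72%). Over all genes, 6.18% were called in the CD133+ comparison with only those populations and 619 of 10338 at the study's thresholds. In CD133- over CD133+ EIF4G2KD these were 4.96% and 606, and 2.68% without the 4 libraries. For the difference of the knock-down effects, 1.85% were called with RLE scaling, 1.49% with no filter and 1.06% without the 4 libraries. RPS3A in CD133- cells turned to -0.24 without the 4 libraries. The causes were not tested. The mean shares and the medians on chromosome 9 and 19q moved by less than the spread between replicates.

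With the replicate number as a block, 12, 15 and 7 members were called in these comparisons, and 0 in the other 2, and RPL32 passed for the difference of the knock-down effects (0.95, edgeR adjusted p = 0.034). Over all genes the calls were 1701, 1674 and 678 (813, 797 and 201 without the block), and 90 and 78 in the other 2 (1 and 27). Among libraries that share a number, 24 of 27 pairs correlated above 0.1 in their deviations from the population means (-0.23 to 0.70). Their median was 0.42, while that of pairs with different numbers was -0.09, and 12 of 19 libraries correlated best with their own number. No source says what the numbers share and not every pair passed 0.1, so results are given without the block. In genes drawn from all those tested, 7.46% of simulated 1.5-fold changes in CD133+ cells were recovered. The median level was 23.9 CPM over tested genes and 1691 CPM over the members. Recovery was not simulated for the members alone, and RPLP1 and RPL7A were called at changes below 1.5-fold.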
